A study of Mus musculus with 3 samples.

Results

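The genes described here encode the enzymes, membrane proteins and proton pump of the lysosome, measured by RNA sequencing in 3 cultured sublines of the mouse B16 melanoma line. They were taken by symbol: 41 named genes plus every gene whose symbol starts with Atp6v0 or Atp6v1, which added 20, so 61 of the 14293 genes in the deposited table. F10, F1 and F0 are sublines of B16, which came from a melanoma of a C57BL/6J mouse, and each was sequenced as 1 library of polyadenylated RNA from untreated subconfluent monolayers in high-glucose medium with 8% serum, used within 10 passages of thawing. The labels name no engineered allele and no treatment, and they call each subline a subclone. Below, F10 and F1 are each set against F0, and F10 is also set against F1. With 1 library a subline no difference has a replicate check or a p-value, and the subline, the culture and the library cannot be told apart.

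The lysosome is an acidic compartment in which proteins, sugars, sulfated glycans and lipids are broken down. Its lumen is acidified by the vacuolar proton pump, whose V1 sector hydrolyses ATP in the cytosol and whose V0 sector carries protons through the membrane. Most of its hydrolases are made in the endoplasmic reticulum, tagged with mannose 6-phosphate and carried to the lysosome by receptors. Transcription factors of the MiT-TFE family, to which the melanocyte regulator Mitf belongs, bind E-box sequences near many lysosomal genes. In pigment cells the melanosome is a lysosome-related organelle that shares part of this machinery.

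Levels are given as RPKM, reads scaled by transcript length and by library size, which is per length, so that levels of different genes can be compared. Differences between libraries are on the log2(RPKM + 1) scale, which understates differences of low genes. Genes with at least 1 RPKM in at least 1 library were compared (10701 genes), and a difference of at least 1 on that scale is called 2-fold. From the steps of low RPKM values, a transcript of 1 kb at 1 RPKM was estimated to hold 5.40 fragments in F10, 6.33 in F1 and 5.47 in F0. Ratios of RPKM carry 95% exact Clopper-Pearson intervals from such estimated fragments, which cover counting error only. All 10 melanocyte markers were compared and they summed to 8536 RPKM in F10, 9075 in F1 and 10300 in F0. They did not all differ in the same direction: 4 lay above F0 and 6 below in F10, and 2 above and 8 below in F1. Pmel, a structural protein of melanosomes, was the furthest of them from F0 in F10. It read 1669 RPKM in F10, 2183 in F1 and 2714 in F0. The 7 of 14 leukocyte markers with a row in the table summed to 5.08 RPKM in F10, 4.18 in F1 and 4.04 in F0, with the pan-leukocyte gene Ptprc at 0 in F10 and F0 and 0.0308 in F1. The 8 fibroblast markers summed to 13.3, 4.86 and 5.41 RPKM in F10, F1 and F0, and the 4 of 5 endothelial markers with a row to 0.347, 0.0938 and 0.0571. Among fibroblast markers Dcn read 2.62 RPKM in F10, 0.445 in F1 and 0.396 in F0, and Pdgfrb read 3.34, 0.148 and 0.758. Macrophages are rich in lysosomal enzymes, and the part of other cells in the values below was not tested. In bulk RNA, fewer cells of a type and less RNA per cell cannot be told apart.

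The sequences of start regions were looked at first, because MiT-TFE factors are known to act on lysosomal genes through a shared motif. Of the 61 genes, 48 matched by symbol to RefSeq promoter windows (GRCm38.p6, 250 bases before to 50 after a start). The E-box CACGTG, a palindrome that reads the same on both strands, lay in a window of 16 of them (33.3%), against 12.2% of the 8258 compared genes with a window and 8.09% of all 27025 genes in the promoter table. The longer palindrome TCACGTGA, each of which also holds a CACGTG, lay in 8 of the 48 (16.7%), against 2.42% and 1.12%. The 10 matches in these 8 genes, which were picked for holding the longer motif, are shown. Most of the 48 genes hold neither motif in a window. Each is printed 5′ to 3′ on the gene's strand with 10 bases on either side, and the motif is in capitals.
Atp6v0d1, chr8:105566051-105566078, minus strand: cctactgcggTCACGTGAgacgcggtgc
Atp6v0e, chr17:26676388-26676415, plus strand: agcgcgccgaTCACGTGAgcctctgttg
Atp6v1a, chr16:44139374-44139401, minus strand: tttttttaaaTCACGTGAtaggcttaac
Cln3, chr7:126583341-126583368, minus strand: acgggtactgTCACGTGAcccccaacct
Ctsa (first match), chr2:164833750-164833777, plus strand: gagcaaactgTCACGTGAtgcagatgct
Ctsa (next match), chr2:164833767-164833794, plus strand: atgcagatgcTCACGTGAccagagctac
Ctsd, chr7:142387909-142387936, minus strand: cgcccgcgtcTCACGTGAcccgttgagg
Gla (first match), chrX:134601216-134601243, minus strand: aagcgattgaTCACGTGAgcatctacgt
Gla (next match), chrX:134601183-134601210, minus strand: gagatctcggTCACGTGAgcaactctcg
Mcoln1, chr8:3500463-3500490, plus strand: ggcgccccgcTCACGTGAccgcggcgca

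The matches sat from 228 bases before the RefSeq start, in Gla, to just after it, in Ctsa and Atp6v0e. A RefSeq start can lie inside the longer GENCODE span of a gene. Only the Gla and Atp6v0d1 matches lie outside the GENCODE span of their gene. Such a match is a description of the letters and not a bound site. The 250 bases before the start are given for Cln3 and Mcoln3, the membrane protein genes with the largest differences between the libraries, with any CACGTG or TCACGTGA in capitals. Cln3 has a pair of windows in the table, and the one with a match is shown. It lies inside the GENCODE span of the gene. The other, chr7:126585818-126586067, lies directly before that span on the gene's strand, and its 250 bases hold 0 matches to either motif.
Cln3, chr7:126583237-126583486, minus strand: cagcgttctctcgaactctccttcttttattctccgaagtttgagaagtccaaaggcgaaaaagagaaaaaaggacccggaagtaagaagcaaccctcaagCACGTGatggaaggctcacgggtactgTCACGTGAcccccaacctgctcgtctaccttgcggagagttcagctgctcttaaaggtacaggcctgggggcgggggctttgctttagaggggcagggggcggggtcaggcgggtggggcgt
Mcoln3, chr3:146121541-146121790, plus strand: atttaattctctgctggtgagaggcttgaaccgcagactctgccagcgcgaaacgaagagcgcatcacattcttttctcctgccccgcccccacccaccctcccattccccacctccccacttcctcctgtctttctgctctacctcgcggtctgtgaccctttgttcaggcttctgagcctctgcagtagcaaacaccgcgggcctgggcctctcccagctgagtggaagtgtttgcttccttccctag
The Cln3 window shown holds 2 matches to CACGTG, 1 of them within TCACGTGA, and the Mcoln3 window holds none. The Mcoln3 window also lies inside the GENCODE span of its gene, so it does not describe the bases before that span. For F10 against F0 the 15 compared genes with CACGTG had a median difference of -0.295 and the 29 without it a median of -0.32. For F1 against F0 these medians were -0.084 with and -0.231 without it, and for F10 against F1 -0.237 with and -0.009 without it. These medians are a description, with no test.

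F10 is known as a line selected for lung colonisation after injection into mice, and F0 as the parental line. Most hydrolases and their cofactors read lower in F10, Mcoln3 and Cln3 read higher, and the proton pump genes lay closer to their F0 levels. The sulfatases were an exception among the hydrolases. Their median F10 against F0 difference was -0.14, near the -0.15 of the pump genes. Of the 61 genes, 57 were compared. In F10, 44 of these lay below their F0 value and 13 above it, where 51.0% of all compared genes lay below and 49.0% above. Their median difference was -0.30, against -0.01 for all compared genes. Over the 41 of them that average at least 20 RPKM the median was -0.34, against -0.075 over all 3231 genes at that level. Differences of at least 2-fold were few: 3 genes were higher in F10 (Mcoln3, Cln3 and Atp6v0c), where 1.54% of all compared genes were, and 2 were lower (Ctsb and Man2b1), where 1.61% were. Together they made up 8.77% of the 57 genes, against 3.15% of all compared genes. At 1.5-fold, 3 genes were higher (5.26%, against 5.86% of all) and 10 lower (17.5%, against 6.46%). The counting interval of the F10 to F0 ratio lay wholly below 1 for 34 of the 57 genes (59.6%, against 18.3% of the 10650 compared genes with a length) and wholly above it for 7 (12.3%, against 15.7%). Intervals are narrower at high levels. Among genes averaging at least 20 RPKM, the interval lay below 1 for 29 of 41 of the lysosomal and pump genes (70.7%) and for 32.7% of all such genes. The filter on low values chose part of these: Mcoln3 and Cln3 reached 1 RPKM in F10 and F1 but not in F0, and Atp6v1g2 in F0 alone, so these 3 had to differ. Over the 54 genes with at least 1 RPKM in each of the 3 libraries the median was -0.31. Ctsf, Atp6v0a4, Atp6v1b1 and Atp6v1c2 did not reach 1 RPKM in any library.

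**Figure D1:**
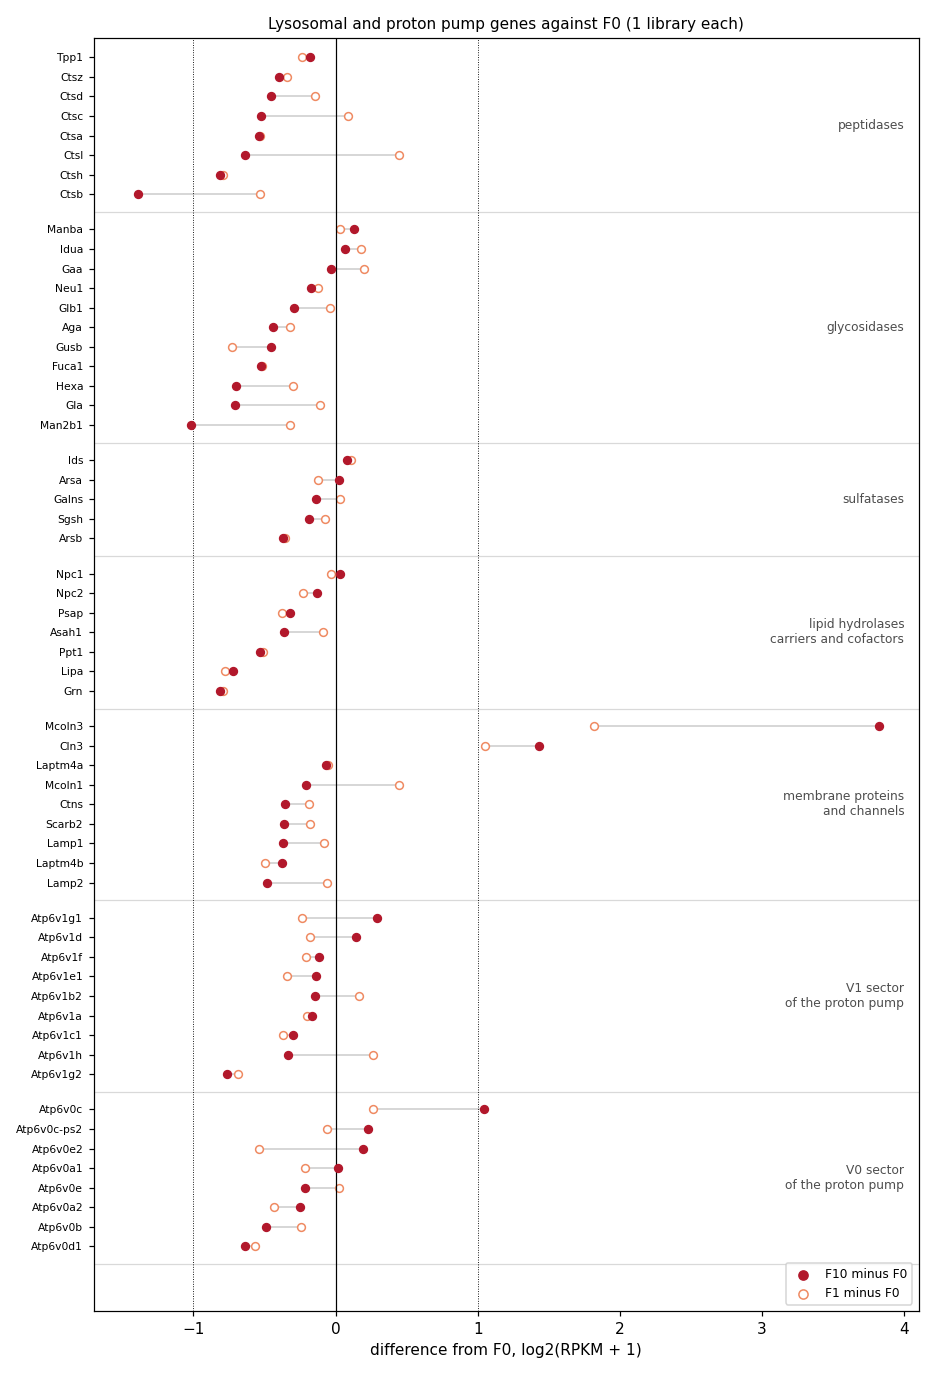
Difference of each compared lysosomal and proton pump gene from F0 on the log2(RPKM + 1) scale, for F10 (filled points) and F1 (open points), 1 library each, with genes grouped by role and dotted lines at 2-fold. Most filled points lie left of 0 in the enzyme groups, Mcoln3 lies at 3.82 and Cln3 at 1.43, and 11 of the 17 pump genes lie left of 0 in F10 and 13 in F1. Of all compared genes, 51.0% lie left of 0 in F10 and 50.8% in F1.

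F1 against F0 asks the same of the subline next in number, and shares the F0 library with the comparison above. In F1, 43 of the 57 genes lay below their F0 value and 14 above it, where 50.8% of all compared genes lay below and 49.1% above. The median difference was -0.19, against -0.01 for all compared genes. Mcoln3 and Cln3 were the only genes at least 2-fold higher (0.972% of all compared genes were), and 0 of the 57 were at least 2-fold lower (1.02% of all were). Together these were 3.51% of the 57 genes, against 1.99% of all compared genes. At 1.5-fold, 2 genes were higher (3.51%, against 4.52% of all) and 5 lower (8.77%, against 5.68%), namely Ctsh, Grn, Lipa, Gusb and Atp6v1g2. On the log2(RPKM + 1) scale these 5 genes thus lay less than 2-fold below F0 in F1. That scale understates differences of low genes. The plain F1 to F0 ratio was 0.287 for Atp6v1g2, with an interval of 0.00549 to 3.59, and 0.506 for Ctsh (0.227 to 1.01).

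F10 against F1, which shares a library with each of the comparisons above, gave a median of -0.02 for the 57 genes and -0.01 for all compared genes. Here 22 genes were above and 35 below their F1 value, where 48.8% and 51.1% of all compared genes were. At least 2-fold apart were Mcoln3, higher in F10 (2.07% of all compared genes were higher), and Ctsl, lower in F10 (1.92% were lower). Together these were 3.51% of the 57 genes, against 3.98% of all compared genes. At 1.5-fold, 3 genes were higher (5.26%, against 8.27% of all) and 7 lower (12.3%, against 7.2%). The pump and the other genes lay on opposite sides in this pair: the 17 compared pump genes had a median of 0.09 and the 40 others a median of -0.06. Both medians are small beside the differences of single genes.

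**Figure D2:**
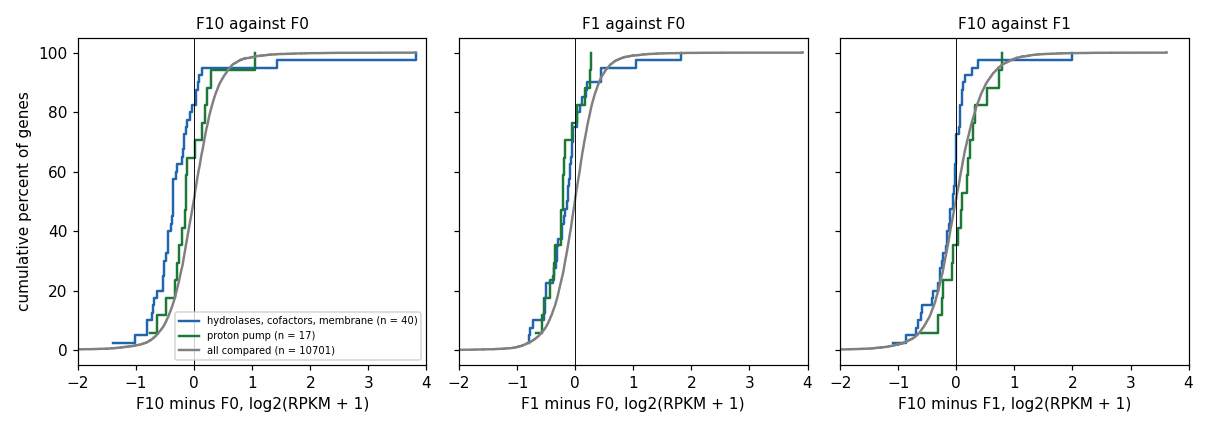
Cumulative percent of genes against the difference of log2(RPKM + 1) for each pair of libraries, for the 40 compared hydrolase, cofactor and membrane protein genes, the 17 compared proton pump genes and all 10701 compared genes. For F10 against F0 the curve of the 40 genes lies left of that of all genes over most of its height, with a median of -0.37 against -0.01.

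The peptidases, which cut proteins in the lysosome, took the largest share of RPKM of any enzyme group, and that share differed most. Together the 9 genes held 0.331% of all RPKM in F10, 0.411% in F1 and 0.461% in F0. All 8 compared peptidases lay below their F0 value in F10, with a median of -0.53, and 6 of 8 did so in F1, with a median of -0.29. Of all compared genes, 51.0% lay below F0 in F10 and 50.8% in F1. The aspartic protease Ctsd was the most abundant of the 61 genes, at 662 RPKM in F10, 819.7 in F1 and 908.5 in F0. Its F10 to F0 ratio was 0.729 (interval 0.707 to 0.752) and its F1 to F0 ratio 0.902 (0.878 to 0.928). It spans chr7:142375911-142388038 (GRCm38) and overlaps the gene model Gm49369 on the same strand.

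Ctsb, which encodes the cysteine protease cathepsin B, read 90.9 RPKM in F10, 165.8 in F1 and 239.8 in F0. It was lowest in F10 and in between in F1. On an estimated 2306 fragments in F10, 4935 in F1 and 6163 in F0, its F10 to F0 ratio was 0.379 (0.361 to 0.398), its F1 to F0 ratio 0.692 (0.666 to 0.718) and its F10 to F1 ratio 0.548 (0.521 to 0.576). In the authors' deposited table its score for F10 against F0 was -8.19, the 22nd largest in size among 13873 scored genes. The score equals the difference in RPKM divided by the square root of the summed RPKM of the 2 libraries. It therefore adds no independent support, and its rank favours abundant genes. Ctsd, at an F10 to F0 ratio of 0.729, ranked 49th. The ratio of Ctsb to Ctsd RPKM within a library was 0.137 in F10, 0.202 in F1 and 0.264 in F0, so Ctsb was lower relative to Ctsd as well as in itself. Ctsb lies at chr14:63122462-63145923 (GRCm38, plus strand) and overlaps Fdft1, a gene of sterol synthesis on the opposite strand that read 29.7 RPKM in F10, 20.6 in F1 and 37.7 in F0.

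Ctsl, the cysteine protease cathepsin L, followed another order. It read 67.6 RPKM in F10, 144.2 in F1 and 105.6 in F0, so it was highest in F1. The F10 to F1 ratio was 0.469 (0.408 to 0.538), the F10 to F0 ratio 0.640 (0.552 to 0.745) and the F1 to F0 ratio 1.37 (1.22 to 1.54). Its F10 against F1 difference was -1.08, and -0.945 after subtraction of GC bin medians, short of 2-fold. A processed pseudogene, Gm49230, overlaps Ctsl on the same strand, and how the authors' counting treated it is not given in the sources used here. Ctsc, the dipeptidyl peptidase cathepsin C, had the same order at lower levels, with 9.22 RPKM in F10, 14.7 in F1 and 13.7 in F0. Its F1 to F0 interval (0.878 to 1.31) includes 1.

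Other peptidases read lower in both F10 and F1 than in F0 by similar amounts. Ctsa, a carboxypeptidase that also protects Neu1 and Glb1, read 54.6 RPKM in F10, 54.9 in F1 and 79.8 in F0. Ctsz, another carboxypeptidase, read 201.6, 210.4 and 266.5 RPKM in F10, F1 and F0. Both had F10 to F1 ratios whose intervals include 1 (0.842 to 1.17 and 0.895 to 1.03). Ctsh, an aminopeptidase, read 2.90 RPKM in F10, 2.96 in F1 and 5.86 in F0 on 11, 13 and 23 fragments, and the intervals of its ratios to F0 (0.213 to 1.03 for F10 and 0.227 to 1.01 for F1) reach 1. Tpp1, which removes tripeptides and is mutated in a form of neuronal ceroid lipofuscinosis, was the compared peptidase closest to F0 in F10, with 71.1, 68.4 and 80.6 RPKM in F10, F1 and F0. Ctsf, a further cysteine protease, stayed below 1 RPKM throughout, at 0.286, 0.649 and 0.189.

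Glycosidases, which remove sugars from glycoproteins, glycolipids and glycogen, had a median difference from F0 of -0.44 in F10 and -0.12 in F1, with 9 and 8 of 11 genes below F0. For all compared genes these shares were 51.0% and 50.8%. Man2b1, the lysosomal alpha-mannosidase, read 14.7 RPKM in F10, 24.4 in F1 and 30.8 in F0. Its F10 to F0 ratio was 0.478 (0.417 to 0.551), and its difference of -1.015 just passed 2-fold, which it no longer did with libraries set to equal sums (-0.945). The beta-hexosaminidase subunit Hexa, which is mutated in Tay-Sachs disease, was the most abundant glycosidase, at 135 RPKM in F10, 178 in F1 and 219.9 in F0. Its ratios to F0 were 0.614 (0.575 to 0.656) in F10 and 0.810 (0.764 to 0.859) in F1. In both genes the F10 value was the lowest and the F1 value lay between.

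Gla, the alpha-galactosidase whose loss causes Fabry disease, read 5.03 RPKM in F10, 8.14 in F1 and 8.86 in F0. The F10 to F0 ratio was 0.569 (0.392 to 0.830) on 47 and 83 fragments, while the F1 to F0 interval (0.671 to 1.25) includes 1. Gusb, the beta-glucuronidase, was instead lowest in F1, with 73.3, 60.3 and 100.7 RPKM in F10, F1 and F0. Fuca1, the alpha-fucosidase, read alike in F10 and F1 (22.9 RPKM in each) and higher in F0 (33.3). Aga, which cleaves the sugar to asparagine bond, read 22.5, 24.6 and 30.9, and Glb1, the beta-galactosidase, read 28.9, 34.6 and 35.6 RPKM in F10, F1 and F0. The other 4 lay near F0. Gaa, the acid alpha-glucosidase of glycogen breakdown, read 51.1, 60.1 and 52.2 RPKM in F10, F1 and F0, and the sialidase Neu1 read 12.4, 12.9 and 14.1. The beta-mannosidase Manba (11.6, 10.8 and 10.5) and the iduronidase Idua (3.41, 3.76 and 3.20) were the glycosidases above their F0 value in F10. For all 4 the counting intervals of the ratios to F0 include 1.

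Sulfatases, which take sulfate from glycans and sulfatide, held the smallest share of RPKM of the role groups. Their 5 genes summed to 58.75 RPKM in F10, 58.73 in F1 and 65.55 in F0. The median difference was -0.14 for F10 and -0.07 for F1, and of the 5 genes only Arsb had intervals against F0 that exclude 1. Arsb, the sulfatase of dermatan sulfate, read 19.1 RPKM in F10, 19.3 in F1 and 24.96 in F0, ratios of 0.767 (0.674 to 0.874) and 0.771 (0.682 to 0.874) to F0. The heparan sulfamidase Sgsh read 7.24 RPKM in F10, 7.91 in F1 and 8.36 in F0. Arsa (18.1, 16.3 and 17.8), Galns (5.90, 6.76 and 6.60) and Ids (8.34, 8.55 and 7.84 RPKM in F10, F1 and F0) gave intervals that include 1 in every pair.

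Among genes of lipid breakdown and transport, 6 of 7 lay below F0 in F10 and 7 of 7 in F1, with medians of -0.37 and -0.38. The shares of all compared genes below F0 were 51.0% and 50.8%. Grn encodes progranulin, a secreted protein that is cut into granulins in the lysosome. It read 76.3 RPKM in F10, 77.6 in F1 and 134.8 in F0, ratios to F0 of 0.567 (0.501 to 0.640) and 0.576 (0.512 to 0.646). Lipa, the acid lipase that frees cholesterol and fatty acids, read 61.4 RPKM in F10, 58.8 in F1 and 101.7 in F0, with ratios to F0 of 0.603 (0.557 to 0.654) and 0.578 (0.535 to 0.625). Both genes were thus separated from F0 in F10 and in F1, and their F10 to F1 intervals (0.861 to 1.12 for Grn and 0.956 to 1.14 for Lipa) include 1.

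The thioesterase Ppt1 had the same shape at 19.2, 19.6 and 28.2 RPKM in F10, F1 and F0, as had Psap, the precursor of the saposins that present lipids to hydrolases, at 212.2, 204.2 and 265.1. Ppt1 overlaps Cap1 on the opposite strand, which read 55.12, 63.45 and 69.53 RPKM in F10, F1 and F0. Reads of Ppt1 and Cap1 may not be separated. The acid ceramidase Asah1 was lower in F10 (51.0 RPKM) than in F1 (62.0) and F0 (65.9). The cholesterol carrier Npc2 read 55.3, 51.6 and 60.7 RPKM, and its membrane partner Npc1 read 21.96, 20.9 and 21.4 in F10, F1 and F0. Npc1 had intervals that include 1 in every pair.

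**Figure D3:**
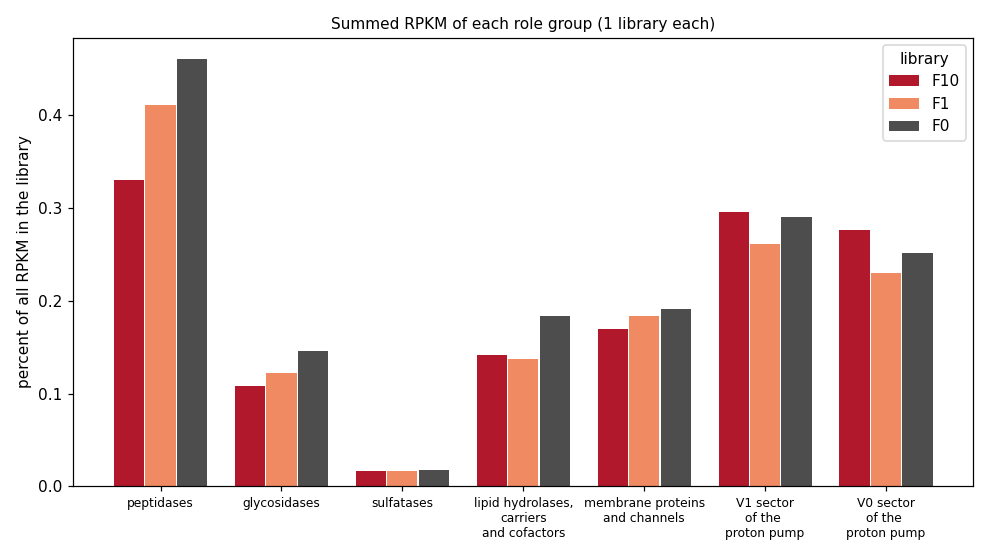
Summed RPKM of each role group as a percent of all RPKM in the F10, F1 and F0 libraries (1 library each, so no error bars). The peptidase bar is 0.331% in F10 and 0.461% in F0, while the V1 sector is 0.296% in F10 and 0.290% in F0 and both pump sectors are lowest in F1. The V1 sum itself is lower in F10, at 1038 RPKM against 1072 in F0, because all RPKM of the F10 library also sum to less.

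Membrane proteins held both the largest difference of all and genes close to F0. Mcoln3 encodes TRPML3, a cation channel of endosomes and lysosomes, and lies at chr3:146117450-146141806 (GRCm38, plus strand). It read 27.0 RPKM in F10, 5.99 in F1 and 0.980 in F0, on 247, 64 and 9 estimated fragments. The F10 to F0 ratio was 27.5 (14.4 to 61.5), the F1 to F0 ratio 6.11 (3.04 to 14.0) and the F10 to F1 ratio 4.50 (3.42 to 6.06). In the authors' deposited table its F10 against F0 score, computed from the same RPKM values, was 4.92, the 77th largest in size. Its difference of 3.82 for F10 against F0 was the highest of all 10701 compared genes.

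The paralog Mcoln1, the TRPML1 channel that releases calcium from lysosomes, read 18.6 RPKM in F10, 29.95 in F1 and 21.7 in F0. The ratio of Mcoln3 to Mcoln1 RPKM was 1.45 in F10, 0.200 in F1 and 0.0452 in F0, so Mcoln3 was above Mcoln1 in F10 alone. Another paralog, Mcoln2, is the next compared gene on the chromosome, 32.4 kb from Mcoln3 by start. It read 3.84 RPKM in F10, 8.64 in F1 and 7.66 in F0, with an F10 to F0 ratio of 0.501 (0.351 to 0.708), so the neighbouring paralogs differed in opposite directions. On the other side Syde2 read 2.50, 2.63 and 2.54 RPKM in F10, F1 and F0.

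Cln3, a lysosomal membrane protein whose loss causes juvenile neuronal ceroid lipofuscinosis, read 3.80 RPKM in F10, 2.69 in F1 and 0.782 in F0. These values rest on 16, 14 and 3 estimated fragments. The F10 to F0 ratio was 4.86 (1.55 to 28.9) and the F1 to F0 ratio 3.44 (1.12 to 21.9), and the F10 to F1 interval (0.613 to 2.96) includes 1. Cln3 spans chr7:126571207-126585817 (GRCm38, minus strand) and overlaps Apobr on the opposite strand, which read 1.10 RPKM in F10, 1.96 in F1 and 0.259 in F0. The library kit keeps strand, but whether the authors' counting used it is not given in the sources used here, so reads of these overlapping genes may not be separated. The compared genes nearest to Cln3 on either side also read higher in F10 and F1 than in F0. Beside Apobr, these were Eif3c (237, 288 and 172 RPKM in F10, F1 and F0), Atxn2l (56.0, 57.1 and 35.9) and Nupr1 (35.2, 103.7 and 26.8).

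The other membrane proteins were at or below F0 in F10. Lamp1, a major glycoprotein of the lysosomal membrane and among the 3 most abundant of the 61 genes by mean, read 231 RPKM in F10, 282 in F1 and 299 in F0. Its F10 to F0 ratio was 0.773 (0.735 to 0.813). Lamp2, which also takes part in chaperone-mediated autophagy, read 77.3, 103.9 and 108.3 RPKM in F10, F1 and F0, and so lay near F0 in F1 (interval 0.888 to 1.04) and lower in F10 (0.654 to 0.778). Scarb2, the receptor that carries glucocerebrosidase to lysosomes, read 15.5, 17.6 and 20.2. The cystine exporter Ctns read 13.1, 14.8 and 17.0 RPKM in F10, F1 and F0. Laptm4b read 78.1, 72.0 and 101.9, while its relative Laptm4a read 130, 132 and 137 and had intervals that include 1 in every pair.

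**Figure D4:**
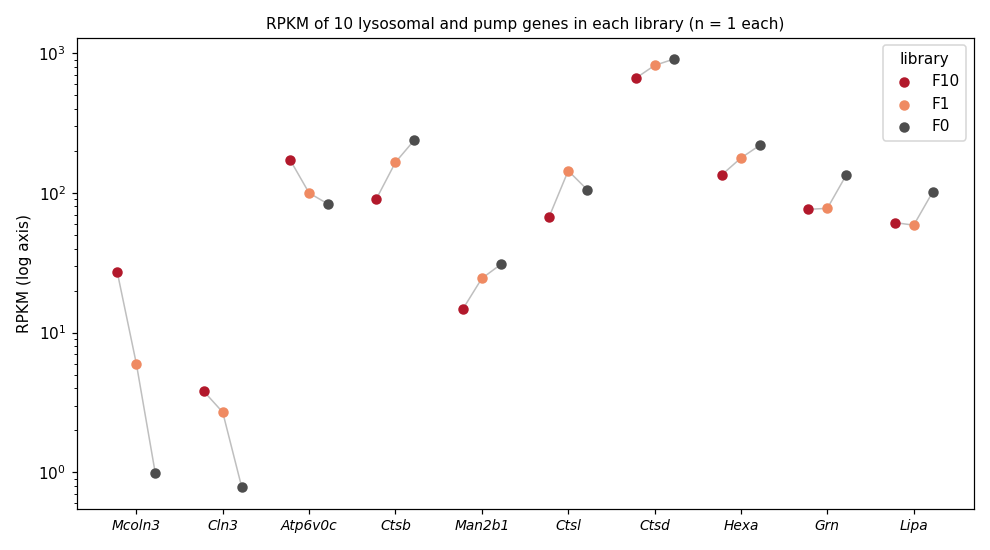
RPKM (log axis) of 10 lysosomal and pump genes in the F10, F1 and F0 libraries, 1 point per library. Mcoln3 is at 27.0 RPKM in F10 and 0.980 in F0, Ctsb is lowest in F10 at 90.9 RPKM, Ctsl is highest in F1 at 144.2 RPKM, and Grn and Lipa are lower in F10 and F1 than in F0.

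The proton pump genes lay closer to F0 than the other genes in F10 but not in F1. Their summed RPKM was 2009 in F10, 1768 in F1 and 2001 in F0, or 0.572%, 0.491% and 0.542% of each library. The other 41 genes summed to 2692, 3136 and 3690 RPKM. The pump sums include Atp6v0c and its pseudogene Atp6v0c-ps2, whose values are uncertain, as described below. Together this pair read 540.1 RPKM in F10, 400.8 in F1 and 397 in F0, so the likeness of the F10 and F0 pump sums depends on it. Of the 17 compared pump genes, 11 lay below F0 in F10 with a median of -0.15, and 13 lay below F0 in F1 with a median of -0.215. Among all compared genes 51.0% lay below F0 in F10 and 50.8% in F1. The medians of the 40 other compared genes were -0.37 in F10 and -0.135 in F1, and the differences between these medians were not tested. Of the 15 pump genes averaging at least 20 RPKM, the interval against F0 lay below 1 for 7 and above it for 5 in F10 (46.7% and 33.3%, against 32.7% and 19.1% of all genes at that level). In F1 it lay below 1 for 10 of the 15 (66.7%, against 28.3%) and above it for 3, where 20.6% of all genes at that level lay above. Over all compared genes with a length, whatever their level, 17.6% lay below and 15.3% above in F1. Atp6v0c and Atp6v0c-ps2 are both among the 5 pump genes with intervals above 1 in F10. With this pair summed as 1 gene, the pump median for F10 against F0 was -0.157.

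In the V1 sector the catalytic subunit gene Atp6v1a read 78.0 RPKM in F10, 76.0 in F1 and 87.6 in F0. The B subunit, present in the pump in equal number with A, was listed almost wholly as Atp6v1b2, at 109, 135 and 121 RPKM in F10, F1 and F0. Its paralog Atp6v1b1, known from kidney, was listed at 0 in F10 and F1 and at 0.0968 in F0. The stalk subunits Atp6v1e1 (234, 204 and 258 RPKM in F10, F1 and F0) and Atp6v1g1 (242, 168 and 198) were the most abundant. Atp6v1g1 was highest in F10, with an F10 to F0 ratio of 1.22 (1.13 to 1.32) and an F10 to F1 ratio of 1.45 (1.34 to 1.56).

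The neuronal paralog Atp6v1g2 read 0.252 RPKM in F10, 0.322 in F1 and 1.12 in F0 on 1, 1 and 3 fragments, and the interval of its F10 to F0 ratio (0.00643 to 4.21) includes 1. It overlaps Nfkbil1 on the opposite strand. The regulatory subunit gene Atp6v1h was highest in F1, at 36.0, 55.1 and 45.7 RPKM in F10, F1 and F0, with an F10 to F1 ratio of 0.653 (0.568 to 0.752). Atp6v1c1, whose product helps the sectors to join, read 82.1, 78.0 and 101.3, and its paralog Atp6v1c2 was listed at 0, 0 and 0.118. Atp6v1d of the central rotor read 109, 87.2 and 98.9 RPKM in F10, F1 and F0, and Atp6v1f read 147, 138 and 160. No V1 gene was 2-fold apart in any pair on the log2(RPKM + 1) scale.

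In the V0 sector Atp6v0c, which encodes the proteolipid of the rotating proton-carrying ring, read 172.7 RPKM in F10, 99.96 in F1 and 83.3 in F0. The F10 to F0 ratio was 2.07 (1.82 to 2.37) and the F10 to F1 ratio 1.73 (1.54 to 1.95). In the authors' deposited table the F10 against F0 score, computed from the same RPKM values, was 5.59, the 56th largest in size. This value is uncertain because the processed pseudogene Atp6v0c-ps2 (chr6:37806086-37806550, GRCm38) matches an Atp6v0c transcript at 464 of its 465 bases (99.8%). The pseudogene itself was listed at 367 RPKM in F10, 301 in F1 and 314 in F0, above Atp6v0c, and the authors' counting could split reads between them. Summed, the pair read 540.1 RPKM in F10, 400.8 in F1 and 397 in F0, a difference of 0.44 for F10 against F0, short of 2-fold. For Atp6v0c alone, subtraction of the median difference of genes of like GC content gave 0.937, also short of 2-fold.

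Atp6v0d1, which joins the ring to the rotor stalk, was the pump gene furthest below F0 in F10 apart from the low Atp6v1g2. It read 99.1 RPKM in F10, 103.7 in F1 and 154.3 in F0, with ratios to F0 of 0.642 (0.588 to 0.700) and 0.672 (0.620 to 0.730). Atp6v0b, another ring subunit, read 98.8, 117 and 139 RPKM in F10, F1 and F0. Of the a subunits, which steer the pump to its membrane, Atp6v0a1 read 49.9 RPKM in F10, 42.4 in F1 and 49.4 in F0 and Atp6v0a2 read 19.4, 17.0 and 23.3. Atp6v0a4, known from kidney and inner ear, stayed at 0.880, 0.635 and 0.738. The a3 subunit gene Tcirg1, whose symbol falls outside the pattern, read 41.5 RPKM in F10, 34.4 in F1 and 42.0 in F0. By level the order of a subunits was thus Atp6v0a1, Tcirg1, Atp6v0a2 and Atp6v0a4 in each library. The small subunit genes Atp6v0e (82.4, 97.3 and 95.8) and Atp6v0e2 (79.9, 47.8 and 70.0 RPKM in F10, F1 and F0) differed in order, with Atp6v0e2 lowest in F1 at an F1 to F0 ratio of 0.684 (0.606 to 0.769).

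**Figure D5:**
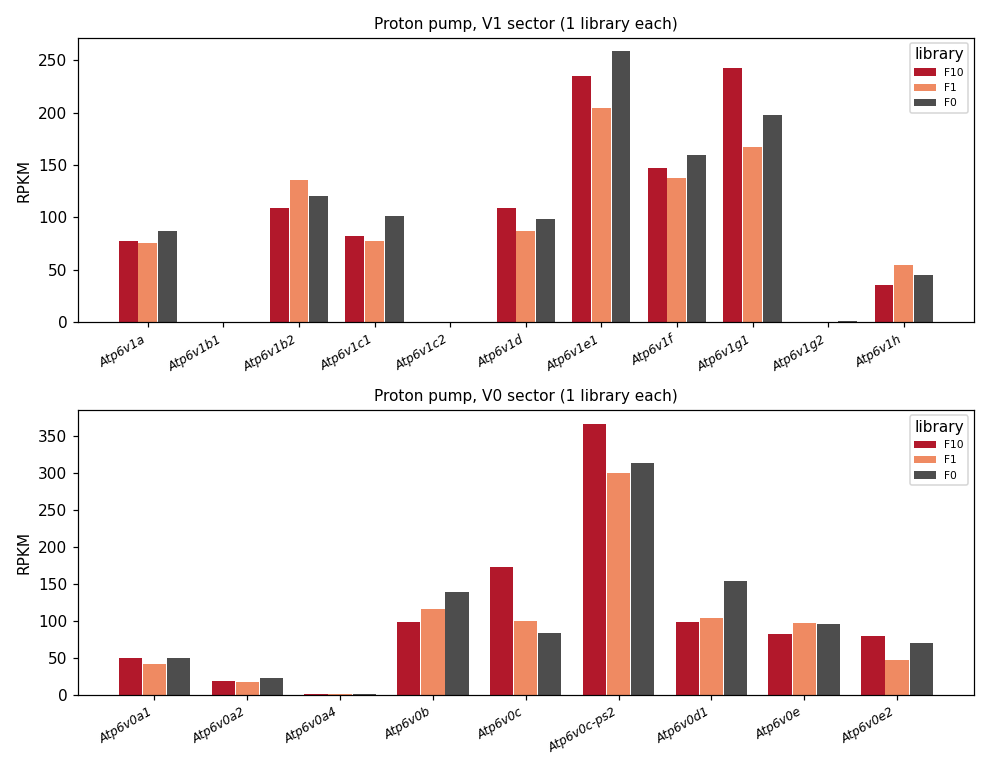
RPKM of each V1 (top) and V0 (bottom) proton pump gene in the F10, F1 and F0 libraries, 1 library each. Atp6v0c is highest in F10 at 172.7 RPKM and Atp6v0d1 highest in F0 at 154.3 RPKM, and the near-identical pseudogene Atp6v0c-ps2 is listed above Atp6v0c in each library.

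Genes of the same pathway outside the 61 were described from lists drawn up with the members. Over all compared genes, 51.0% lay below F0 and 49.0% above in F10, and 50.8% and 49.1% in F1. At least 2-fold higher were 1.54% in F10 and 0.972% in F1, and at least 2-fold lower 1.61% and 1.02%. The counts of each list below stand beside these shares. Of 33 further hydrolases and cofactors, 29 were compared. In F10, 21 lay below F0 and 8 above, with a median of -0.28, 1 of them at least 2-fold lower and 0 at least 2-fold higher. In F1, 16 lay below and 13 above, with a median of -0.06 and 1 gene at least 2-fold higher. Ctso, a cysteine protease, read 0.546 RPKM in F10, 3.06 in F1 and 2.65 in F0, an F10 to F0 ratio of 0.206 (0.0916 to 0.404). Ctsk, the collagen-cleaving cathepsin K of osteoclasts, read 1.31 RPKM in F10, 2.53 in F1 and 0.236 in F0 on 10, 24 and 2 fragments, an F10 to F0 ratio of 5.56 (1.08 to 47.5) and an F1 to F0 ratio of 10.8 (2.57 to 90.5). Rnaset2b, a ribonuclease gene, read 26.1 RPKM in F10, 12.2 in F1 and 16.9 in F0. Its copy Rnaset2a, on the same list, differed in the opposite direction, at 58.3, 91.6 and 76.8 RPKM. Reads of this pair may not be separated, so both values are uncertain. The likeness of their sequences was not measured here.

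Further membrane proteins and transporters had 20 of 26 compared genes below F0 in F10 and a median of -0.15, with 0 at least 2-fold apart in any pair. The tetraspanin Cd63, an abundant protein of lysosomes and melanosomes, read 423 RPKM in F10, 562 in F1 and 762 in F0. Its F10 to F0 ratio was 0.556 (0.528 to 0.584), and with Mcoln2 it was the furthest of that list from F0. Accessory and assembly factors of the pump had 10 of 15 genes below F0 in F10 and a median of -0.12. The furthest were Ncoa7 (4.596, 8.35 and 6.57 RPKM in F10, F1 and F0) and Tmem199, an assembly factor (32.4, 33.9 and 42.9).

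Genes for tagging and sorting had 19 of 24 compared members below F0 in F10, with a median of -0.13, where 51.0% of all compared genes lay below. In F1 this was 17 of 24, with a median of -0.10, against 50.8% of all. The retromer subunit Vps29 read 68.4 RPKM in F10, 81.7 in F1 and 106.7 in F0, and Sumf1, which activates sulfatases, read 17.7, 17.3 and 25.1. All 5 compared genes of a list of protease inhibitors lay below F0 in both sublines, with medians of -0.76 in F10 and -0.28 in F1. They were the cystatins Cst3, Cst6 and Cstb and the serpins Serpinb6a and Serpinb9. Among them Cst6 read 4.72 RPKM in F10, 8.16 in F1 and 10.2 in F0, and Serpinb6a read 50.6, 85.9 and 90.9.

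In the list of MiT-TFE factors and lysosomal nutrient sensing genes, 21 genes were compared. Of these, 16 were above F0 in F10 and 5 below, with a median of 0.24, where 49.0% of all compared genes lay above. In F1, 11 were above and 10 below, with a median of 0.00, where 49.1% of all lay above. Mitf, the melanocyte factor, read 62.8 RPKM in F10, 43.9 in F1 and 57.9 in F0, and its F10 to F0 interval (0.975 to 1.21) includes 1. Tfe3 read 15.4 RPKM in F10, 20.5 in F1 and 14.4 in F0, with an F10 to F0 interval (0.895 to 1.29) that includes 1. Tfeb read 4.81 RPKM in F10, 1.68 in F1 and 2.76 in F0 on 13, 5 and 8 fragments, with an F10 to F1 ratio of 2.87 (1.02 to 10.9) and an F10 to F0 interval (0.632 to 4.58) that includes 1. Tfec was listed at 0.106 in F10, 0 in F1 and 0.105 in F0. Lamtor2, a scaffold of the Ragulator complex that anchors nutrient sensing at the lysosome, read 97.7 RPKM in F10, 62.9 in F1 and 68.6 in F0.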

How the data were processed

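RNA of 3 sublines was sequenced in 1 library each. The authors deposited 1 table with RPKM per gene and library, per the file headers, and a score per gene for F10 and F1 against F0. TopHat, Bowtie2, Cufflinks and bcl2fastq were used with the build mm10, per the submitters' processing notes. Their versions and settings, the strand mode and the annotation counted on were not given in the sources used here. Of 14313 rows, 20 held a spreadsheet date in place of a symbol (0.174% of all RPKM) and were left out. The groups came from the subclone label.

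Differences of log2(RPKM + 1) were taken for genes with at least 1 RPKM in at least 1 library, with Python 3.11.15 (pandas 2.3.3, scipy 1.17.1). Depth was estimated from 1392 single-transcript genes of at least 800 bases: the RPKM that 1 fragment gives was read from the steps in their low values, with 40 bases taken off each length. Within 5% of a step were 74.9% of the values around it. Lengths, GC content and gene coordinates came from GENCODE M21 (GRCm38, which is mm10), for 99.1% of genes, 528 through an older symbol, as the median over protein-coding transcripts. Interval counts over all genes were added after their values in the 61 genes were seen. Fragments per gene and the intervals from them are therefore approximate. Steps were tested on simulated data.

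The 61 genes and the other lists were chosen with earlier results of these data known. Every one of the 61 was described, and from each other list the genes at least 2-fold apart in a pair and the 2 furthest from F0 in F10 were named, plus the MiT-TFE factors. Tcirg1 and the other genes named outside that rule were added after their values were seen. The others are Apobr, Fdft1, Cap1, Nfkbil1, Syde2, Atxn2l, Eif3c, Nupr1, Rnaset2a, the inhibitors Cst3, Cstb and Serpinb9, the markers Pmel, Dcn and Pdgfrb, and the gene models that overlap members. Promoter windows came from RefSeq (GRCm38.p6). Alternatives were other pseudocounts, filters, scalings and thresholds, subtraction of GC bin medians and means in place of medians.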

Additional observations from a re-analysis of the deposited data

How the results depend on the processing

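No paired analysis was possible because each subline has 1 library. The median over the 57 genes for F10 against F0 lay between -0.31 and -0.195 under the alternatives, and for F1 against F0 between -0.201 and -0.151. For F10 against F1 it lay between -0.055 and 0.005, so its sign is not fixed. Of the counts of genes at least 2-fold apart, the 2 lower genes in F10 against F0 became 1 with each library set to the same sum, with median ratio scaling and with subtraction of GC bin medians, where Man2b1, at -1.015 as deposited, read -0.945 with equal sums and -0.997 with GC subtraction and lay at the threshold with median ratio scaling. The 3 higher genes in F10 against F0 became 2 after GC subtraction, where Atp6v0c read 0.937, and 2 with a filter at 5 RPKM or with Atp6v0c and its pseudogene summed. The 1 lower gene in F10 against F1, Ctsl, became 0 after GC subtraction. A pseudocount of 0.1 gave 1 lower gene in F1 against F0 in place of 0, and a filter at 5 RPKM left 1 higher gene there in place of 2. At a threshold of 1.5-fold, 10, 5 and 7 genes were lower for F10 against F0, F1 against F0 and F10 against F1, and 3 were higher in F10 against F1. At 4-fold, 1, 0 and 0 were higher and 0 lower in F10 against F0 and F10 against F1. Of all 10701 compared genes, 19, 9 and 17 were at least 4-fold higher for F10 against F0, F1 against F0 and F10 against F1. At least 4-fold lower were 25, 10 and 23. Restriction to at least 1 RPKM in each library, chosen after seeing the data, left 1, 0 and 0 higher genes of 54, since it removes Mcoln3 and Cln3. Of all 9899 genes that it kept, 69, 59 and 123 were higher in these pairs. Ctsb read -1.32 and -1.30 for F10 against F0 under equal sums and GC subtraction. With its pseudogene summed in, also chosen after seeing the data, Atp6v0c read 0.44 and 0.43 for F10 against F0 and F1. Over all compared genes, a pseudocount of 0.1 gave 330 genes higher and 308 lower for F10 against F0, in place of 165 and 172, and a filter at 5 RPKM gave 73 and 103. For F1 against F0 these were 229 and 314, in place of 104 and 109, and 64 and 68. For F10 against F1 they were 473 and 354, in place of 221 and 205, and 119 and 142. For F10 against F0, equal sums gave 186 of all genes higher and 146 lower. Median ratio scaling gave 170 and 167, and GC subtraction 133 and 161. For F10 against F1, GC subtraction gave 174 higher and 191 lower. Low depth limits Cln3, Ctsh, Tfeb and Atp6v1g2.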
